A study of Mus musculus with 6 samples.

Results

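The genes described here encode the enzymes and transporters of central carbon metabolism, from glucose uptake through glycolysis and lactate production to the pentose phosphate pathway, pyruvate dehydrogenase and the tricarboxylic acid (TCA) cycle. They were taken from a list of 45 mouse gene symbols and matched by symbol to the entries of the deposited expression table, and 44 of the 45 were found among its 26384 entries. Pyruvate kinase, listed as Pkm, was not found under that symbol. Its older symbol Pkm2 was present, and its values are given beside the others without being counted with them. Of the 44 genes, 42 reached a mean of 1 FPKM, the filter set for testing, while the glucose transporter gene Slc2a3 and the lactate dehydrogenase B gene Ldhb did not. FPKM is a level corrected for transcript length and library depth. Its sum still differed between libraries, from 531092 to 551958. Comparisons between libraries therefore also depend on how the values are scaled, and other scalings are given below.

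The data are RNA-seq of mouse leukemia cells in which the fusion oncogene MLL-AF9 drives acute myeloid leukemia. Mouse bone marrow c-Kit+ progenitors had been transduced with MLL-AF9 together with green fluorescent protein (GFP) and passed serially from mouse to mouse, and the cells of both groups therefore carried the same transgene. They grew in C57BL/6J mice that received either vehicle (3 libraries) or FF-10501-01 at 160 mg/kg (3 libraries) on 2 consecutive days. FF-10501-01 is a prodrug of mizoribine, which inhibits inosine monophosphate dehydrogenase (IMPDH) and thereby the de novo making of guanine nucleotides. Bone marrow was harvested 48 h after the first dose per the labels, although the RNA-seq paragraph of the study's methods describes a shorter interval, and GFP+ cells were sorted. Per the study's methods the C57BL/6 mice were used at 8 to 12 weeks of age. Their sex and the number of independent transductions were not given in the sources used here. The cells of both groups came from serial passage, and GFP marks the transduced cells and their progeny at any stage of maturation. The table numbers the libraries of each group differently from the labels, so libraries are numbered 1 to 3 here in column order. Gene positions are given on GRCm38. Where 2 sets of values follow each other, the vehicle libraries come first. The study describes 3 biological replicates per group, but nothing ties a column to a particular mouse. The p-values measure only the spread between these libraries.

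Glycolysis converts glucose to pyruvate in the cytosol. Its upper steps spend ATP to make triose phosphates, and its lower steps regain ATP and NADH. Glucose 6-phosphate can instead enter the pentose phosphate pathway, whose oxidative branch makes NADPH and ribulose 5-phosphate and whose non-oxidative branch interconverts sugar phosphates, including the ribose 5-phosphate from which purine nucleotides are built. Pyruvate is either reduced to lactate or oxidized by pyruvate dehydrogenase to acetyl-CoA, the fuel of the TCA cycle in mitochondria.

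With FF-10501-01, 4 of 12 upper glycolysis genes and 4 of 7 pentose phosphate genes rose and none of them fell, while the only tested lactate dehydrogenase gene and 3 of 15 pyruvate dehydrogenase and TCA cycle genes fell and none rose. Of the 42 tested genes, 8 rose, 4 fell and 30 did not pass the test (limma on log2(FPKM + 1), Benjamini-Hochberg adjusted p under 0.05 over 11004 entries). Thus 19% of the genes rose and 9.52% fell, beside 7.43% and 7.46% of all tested entries, and 28.6% passed in either direction, beside 14.9%. All 8 that rose belong to upper glycolysis (Hk2, Hk3, Gpi1, Pfkfb4) or the pentose phosphate pathway (G6pdx, Rpia, Rpe, Taldo1), and the 4 that fell encode lactate dehydrogenase A (Ldha), a pyruvate dehydrogenase subunit (Pdha1) and the TCA cycle subunits Idh3g and Suclg2. The changes were small. Their log2 fold changes ran from -0.27 to 0.55, on a scale that understates the change of low genes, and the median over the 42 genes was -0.03, beside -0.01 over all tested entries. The 3 FF-10501-01 libraries lay entirely above the 3 vehicle libraries for 10 genes and entirely below for 13, where 17.6% and 21.2% of all tested entries did so. Together these were 54.8% of the genes, beside 38.8% of all tested entries.

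**Figure D1:**
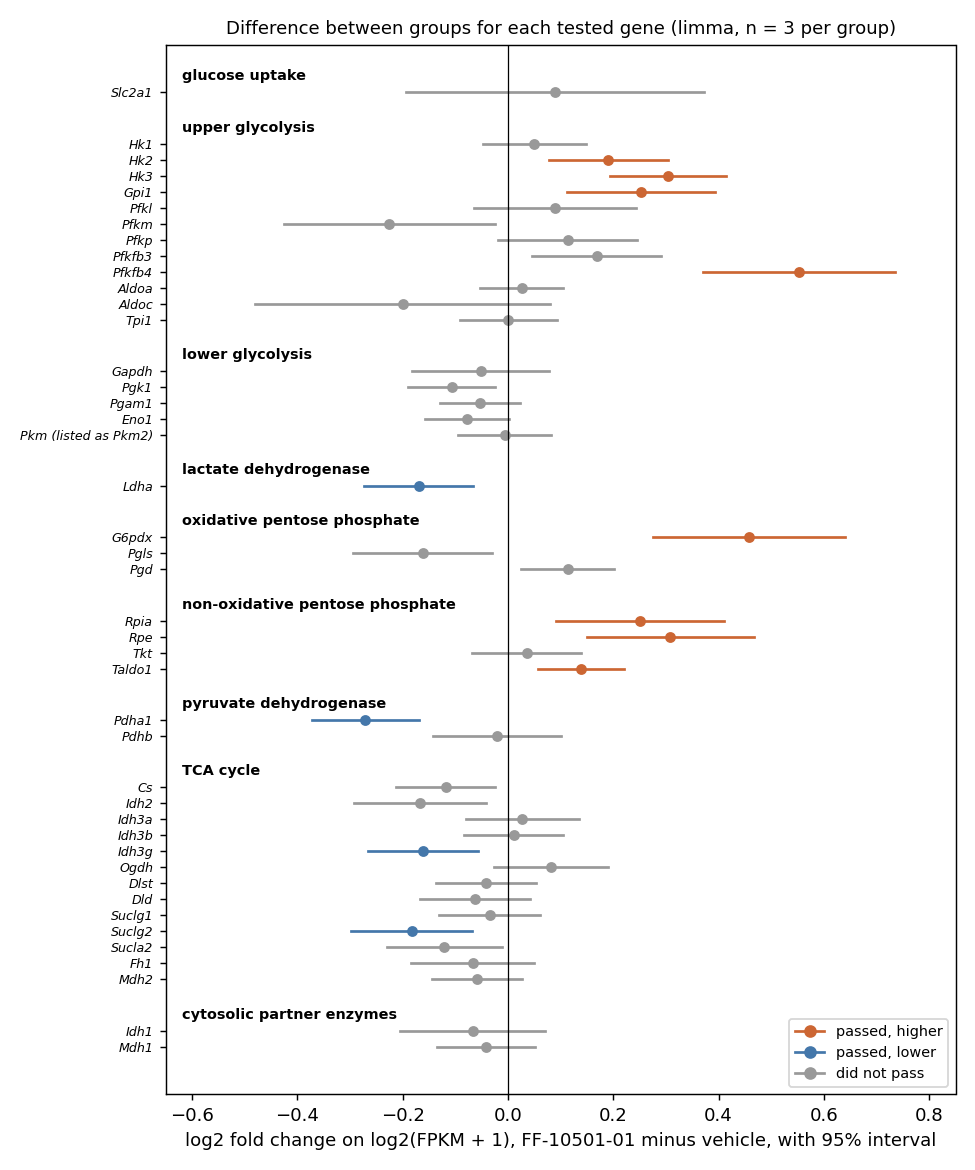
Difference between the groups for each tested gene, ordered by pathway. Points are log2 fold changes on the log2(FPKM + 1) scale, FF-10501-01 minus vehicle, with 95% intervals from limma (n = 3 per group), colored by whether the gene passed the test. The 8 genes that rose lie in upper glycolysis and the pentose phosphate pathway, and Pkm, listed as Pkm2, is shown but not counted.

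These libraries also differed in cell maturity markers. Summed over 11 late neutrophil markers, FPKM ran from 542 to 591 in the vehicle libraries and from 925 to 1907 in the FF-10501-01 libraries, with FF-10501-01 replicate 3 the highest, and 6 of the 8 that could be tested rose. S100a8, a calcium-binding protein gene of neutrophils, was at 141, 167 and 136 FPKM with vehicle and 316, 428 and 686 with FF-10501-01, while Ly6g, which defines mature neutrophils, was listed at 0 in every vehicle library and in FF-10501-01 replicate 2 and stayed under 1 FPKM in the others. The sum over 11 tissue macrophage markers was 80.3 to 93.6 with vehicle and 112.6 to 135.6 with FF-10501-01, and 4 of the 5 tested rose. Vcam1 carried the largest part. Adgre1, Slc40a1 and Siglec1 rose too, with log2 fold changes of 0.40, 0.40 and 0.58. Marco and Cd5l were near 0. Cd163, the other tested marker, was at 2.67, 0.758 and 2.52 FPKM with vehicle and 0.847, 0.344 and 0.0965 with FF-10501-01. Its groups overlapped, and its log2 fold change of -1.02 did not pass (adjusted p = 0.0532, limma). The study describes higher Vcam1 on the leukemia cells themselves after the drug. The macrophage sum therefore does not tell macrophages from leukemia cells. Megakaryocyte and platelet markers summed to 9.97 to 10.9 and 15.7 to 24.3 FPKM, and B cell markers to 8.24 to 9.36 and 5.71 to 6.73 FPKM. Erythroid markers summed to 2.93 to 9.22 and 0.675 to 4.18 FPKM, T and NK cell markers to 1.59 to 2.33 and 2.09 to 2.34, and stromal and endothelial markers to 1.06 to 1.39 and 1.26 to 1.46, vehicle first. Of the erythroid markers, 11 of 12 stayed under 1 FPKM in every library, 4 of them at 0 throughout. The defining markers of the leukemia were present, and the 11 genes of the leukemia and myeloid progenitor list summed to 5137 to 5732 and 5468 to 5891 FPKM, with 3 higher and 2 lower. Hoxa9 is a homeobox target of MLL fusions, and its entry also holds Mir196b. It was at 195, 232 and 189 FPKM with vehicle and 243, 255 and 239 with FF-10501-01 (adjusted p = 0.0465, limma). Meis1, another such target, was at 65.9, 67.4 and 67.5 FPKM and 63.2, 63.9 and 64.1 FPKM. It was lower in every treated library without passing (adjusted p = 0.230, limma). The study, which tested genes with Cuffdiff, reports no effect of the drug on Hoxa9 or Meis1, unlike the call for Hoxa9 here. Itgam (CD11b) and Spi1 (PU.1) also rose. Kit fell, as did Cd34, a progenitor surface gene, which was at 138, 118 and 140.3 FPKM with vehicle and 99.7, 95.6 and 76.6 with FF-10501-01 (adjusted p = 0.0176, limma). In bulk RNA, fewer cells of a type and less RNA per cell cannot be told apart. The late neutrophil, tissue macrophage, megakaryocyte and B cell sums differed between the groups without overlap. So did the 5 progenitor list genes that passed, Meis1 and every listed gene that changed. The erythroid, T and NK cell, stromal and progenitor list sums overlapped. The part of the marker differences in the results was not tested.

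Glucose enters through facilitated transporters, of which Slc2a1 (GLUT1) was the main one listed. Slc2a6, a gene of the same family outside the list, had a higher mean over all libraries, 15.8 FPKM beside 10.9, and did not pass. Slc2a1 ran from 8.60 to 12.4 FPKM in the vehicle libraries and 10.002 to 12.5 in the FF-10501-01 libraries. Its log2 fold change was 0.09 with a 95% interval from -0.19 to 0.37 (adjusted p = 0.646, limma). The groups overlapped throughout, and the interval is the widest among the 42 genes. Slc2a3 (GLUT3) stayed between 0.284 and 0.441 FPKM.

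Hexokinase traps glucose in the cell as glucose 6-phosphate, and 3 isozyme genes were listed. Hk3, the isozyme gene typical of myeloid cells (chr13:55005985-55021385, minus strand), was at 170.0, 188 and 187 FPKM in the vehicle libraries and 219, 225 and 229 in the FF-10501-01 libraries. Vehicle replicate 1 was the lowest, the FF-10501-01 libraries lay close together, and the groups did not overlap. Hk3 rose by 23.4% of its vehicle mean, from 182 ± 10.3 to 224 ± 4.95 FPKM (SD, n = 3 each), with a log2 fold change of 0.30 (SE 0.05, adjusted p = 0.0125, limma). Hk2, an inducible isozyme gene (chr6:82725025-82774454, minus strand), was at 24.6, 25.1 and 25.1 FPKM with vehicle and 29.0, 27.2 and 29.7 with FF-10501-01. Again all treated libraries were higher, and the vehicle libraries were nearly alike. Hk2 rose by 0.19 on the log2 scale (SE 0.05, adjusted p = 0.0380, limma). Hk1, the widely expressed isozyme gene, was at 68.4, 68.8 and 65.1 FPKM with vehicle and 69.1, 68.5 and 71.9 with FF-10501-01, with overlapping groups and a log2 fold change of 0.05 (95% interval -0.05 to 0.15, adjusted p = 0.443, limma). Summed over the 3 genes, hexokinase transcripts were at 274 ± 10.05 FPKM with vehicle and 323 ± 6.98 with FF-10501-01, and Hk3 made up 66.3 ± 1.46% of the sum with vehicle and 69.5 ± 0.568% with FF-10501-01 (SD, n = 3 each). The share of Hk1 was 24.6% and 21.6%, and that of Hk2 9.11% and 8.87%.

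Glucose-6-phosphate isomerase, the next enzyme, is encoded by Gpi1 (chr7:34201330-34230336, minus strand), 1 of the more abundant transcripts of the list. Its level was 647, 721 and 626 FPKM with vehicle and 749, 788 and 838 with FF-10501-01. The lowest treated library was only slightly above vehicle replicate 2, but the groups did not overlap. Gpi1 rose by 0.25 on the log2 scale (SE 0.06, adjusted p = 0.0313, limma), from a mean of 665 ± 49.7 to 791 ± 44.6 FPKM (SD, n = 3 each).

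The phosphofructokinase step commits sugar to glycolysis. None of its 3 subunit genes passed the test. Pfkl, the liver-type subunit gene, ranged from 29.96 to 34.3 FPKM with vehicle and 32.1 to 36.5 with FF-10501-01 (log2 fold change 0.09, adjusted p = 0.380, limma), and Pfkp, the platelet-type gene, from 21.5 to 24.3 and 24.1 to 25.8 FPKM (0.11, adjusted p = 0.207). Pfkm, the muscle-type gene, was the least abundant at 6.44, 6.72 and 6.78 FPKM and 5.87, 6.06 and 4.77 FPKM. All 3 treated libraries were below the vehicle libraries, with replicate 3 the lowest, and the log2 fold change of -0.23 had an unadjusted p of 0.0316 and an adjusted p of 0.113 (limma). As a share of the phosphofructokinase transcripts, Pfkm was at 10.7 ± 0.378% with vehicle and 8.57 ± 1.25% with FF-10501-01 (SD, n = 3 each).

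Phosphofructokinase is controlled by fructose 2,6-bisphosphate, which the bifunctional PFKFB enzymes make and break down. Pfkfb4 (chr9:108991778-109032228, plus strand) had the greatest rise of the 42 genes. It was at 3.64, 3.66 and 3.66 FPKM in the vehicle libraries, which hardly differed, and at 5.204, 6.08 and 6.24 in the FF-10501-01 libraries. Its log2 fold change was 0.55 (95% interval 0.37 to 0.74, adjusted p = 0.0103, limma), and its mean was 59.9% higher. Pfkfb3, the more abundant of the pair and the one with the strongest bias toward synthesis, was at 27.2, 29.5 and 26.9 FPKM with vehicle and 30.3, 31.3 and 32.7 with FF-10501-01. The groups did not overlap, but the log2 fold change of 0.17 did not pass (adjusted p = 0.0675, limma), although it did when the values were rescaled to TPM, in which every library has the same sum (adjusted p = 0.0440), or when vehicle replicate 2 was left out (0.0428). Pfkfb4 made up 11.6 ± 0.481% of the transcripts of the pair with vehicle and 15.7 ± 0.883% with FF-10501-01 (SD, n = 3 each).

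**Figure D2:**
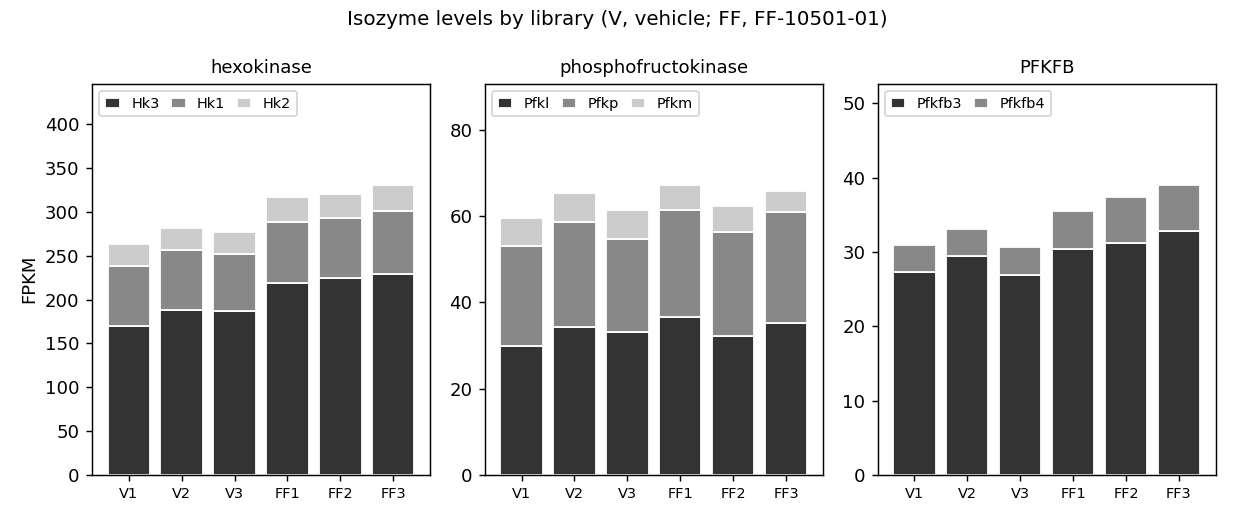
FPKM of the isozyme genes of hexokinase, phosphofructokinase and PFKFB in each library, stacked. Bars start at 0, V marks vehicle and FF marks FF-10501-01, replicates 1 to 3. The hexokinase stack stands between 263 and 282 FPKM with vehicle and 317 and 331 with FF-10501-01, with Hk3 the largest layer throughout.

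The remaining upper steps were close to level. Aldolase, which splits fructose 1,6-bisphosphate, was represented almost wholly by Aldoa, 99.07% to 99.5% of the pair across the libraries and 583 to 611 FPKM (log2 fold change 0.03, 95% interval -0.05 to 0.10). Aldoc, the brain-type aldolase gene, stayed between 3.31 and 5.48 FPKM with overlapping groups. Tpi1, triose phosphate isomerase, was at 219 ± 8.99 and 219 ± 0.914 FPKM (SD, n = 3 each), with a 95% interval of the log2 fold change from -0.09 to 0.09. In all, 4 of 12 upper glycolysis genes rose (33.3%, beside 7.43% of all tested entries), none fell, and 10 of 12 had a positive difference, with a median log2 fold change of 0.10. That median moved to 0.14 without vehicle replicate 2 and to 0.14 without FF-10501-01 replicate 2.

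In lower glycolysis no gene passed the test. Gapdh, the glyceraldehyde 3-phosphate dehydrogenase gene often used as a reference, was the most abundant of all listed genes at 2199, 2512 and 2179.9 FPKM with vehicle and 2170.2, 2272 and 2195 with FF-10501-01. The groups overlapped, and vehicle replicate 2 stood highest. Its log2 fold change of -0.05 (adjusted p = 0.558, limma) changed sign under quantile normalization and when vehicle replicate 2 was left out, to 0.02 and 0.01. Pgk1, phosphoglycerate kinase, which makes the first ATP of the lower steps, was at 254, 250.2 and 242 FPKM and 234, 229 and 229.7 FPKM. Every treated library was lower, but the log2 fold change of -0.11 did not pass (unadjusted p = 0.0174, adjusted p = 0.0798, limma). Pgam1, phosphoglycerate mutase, and Eno1, enolase, were likewise lower in every treated library by log2 fold changes of -0.05 and -0.08, with adjusted p-values of 0.302 and 0.163. The median of these 4 genes was -0.07. Pyruvate kinase, the entry Pkm2, was at 907, 935 and 867 FPKM and 892, 911 and 894 FPKM, a log2 fold change of -0.01 with a 95% interval from -0.09 to 0.08. The reference annotation holds 2 pseudogenes named after each of Aldoa, Gapdh, Pgk1, Pgam1 and Ldha, and an Eno1 copy has an entry of its own in the table, so reads shared with near-identical copies make these levels uncertain.

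Lactate dehydrogenase turns pyruvate into lactate and restores NAD+. Ldha (chr7:46841475-46855627, plus strand) was at 426, 444 and 405 FPKM in the vehicle libraries and 390.0, 378 and 365 in the FF-10501-01 libraries. The highest treated library was below the lowest vehicle library. Ldha fell by 11.1% of its vehicle mean, with a log2 fold change of -0.17 (SE 0.05, adjusted p = 0.0414, limma). Ldhb, the heart-type subunit gene, was at 0.514, 0.372 and 0.711 FPKM with vehicle and 0.646, 1.14 and 0.568 with FF-10501-01, at most 0.3002% of the summed lactate dehydrogenase level in any library.

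The promoters of the 4 listed genes with the smallest adjusted p (Pfkfb4, Hk3, Pdha1, G6pdx) are shown, with that of Ldha added outside this order. The promoters lie before genes that changed and can be read for short motifs of metabolic regulators. They are from RefSeq on GRCm38.p6, 250 bases before to 50 bases after the start, written 5′ to 3′ on the strand of the gene, and 41 of the 42 tested genes matched such an entry. Capitals mark matches, on either strand, to the E-box CACGTG, to the hypoxia-inducible factor core ACGTG or GCGTG, or to the antioxidant response core TGACNNNGC. Each E-box also contains 2 matches to the hypoxia core, 1 on each strand.
Hk3 (chr13:55021336-55021635, minus strand): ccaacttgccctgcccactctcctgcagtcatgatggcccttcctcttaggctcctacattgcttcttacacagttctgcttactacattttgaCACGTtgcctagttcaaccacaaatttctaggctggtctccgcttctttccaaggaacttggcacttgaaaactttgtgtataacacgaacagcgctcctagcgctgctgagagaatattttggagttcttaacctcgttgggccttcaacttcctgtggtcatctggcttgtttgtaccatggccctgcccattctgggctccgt
Pfkfb4 (chr9:108991652-108991951, plus strand): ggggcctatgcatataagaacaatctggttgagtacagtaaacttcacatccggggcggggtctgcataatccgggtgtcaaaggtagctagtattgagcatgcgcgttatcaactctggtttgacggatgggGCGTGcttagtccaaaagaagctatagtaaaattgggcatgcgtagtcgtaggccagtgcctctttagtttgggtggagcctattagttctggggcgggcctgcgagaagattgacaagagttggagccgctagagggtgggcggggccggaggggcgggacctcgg
G6pdx (chrX:74428831-74429130, minus strand): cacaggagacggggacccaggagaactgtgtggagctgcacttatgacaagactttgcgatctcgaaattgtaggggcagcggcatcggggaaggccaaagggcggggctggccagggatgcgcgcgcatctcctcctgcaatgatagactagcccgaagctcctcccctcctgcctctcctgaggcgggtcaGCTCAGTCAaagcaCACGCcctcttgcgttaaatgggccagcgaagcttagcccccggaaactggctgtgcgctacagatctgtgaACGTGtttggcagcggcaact
Pdha1 (chrX:160138381-160138680, minus strand): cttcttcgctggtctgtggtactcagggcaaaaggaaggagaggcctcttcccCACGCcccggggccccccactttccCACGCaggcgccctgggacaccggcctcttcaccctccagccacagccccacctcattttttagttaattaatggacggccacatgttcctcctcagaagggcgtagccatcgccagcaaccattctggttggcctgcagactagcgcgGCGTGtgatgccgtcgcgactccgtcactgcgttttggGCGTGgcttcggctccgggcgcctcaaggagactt
Ldha, the first of 2 annotated starts (chr7:46845554-46845853, plus strand): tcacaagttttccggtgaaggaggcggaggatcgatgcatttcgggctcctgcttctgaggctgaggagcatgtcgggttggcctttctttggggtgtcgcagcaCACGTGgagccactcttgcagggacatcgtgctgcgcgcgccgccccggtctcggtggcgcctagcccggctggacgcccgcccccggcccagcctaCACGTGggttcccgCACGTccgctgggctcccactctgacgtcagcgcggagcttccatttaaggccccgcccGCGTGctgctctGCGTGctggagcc
The Ldha window shown held 2 E-boxes and 7 matches to the hypoxia core, 4 of which lie inside the E-boxes. The window of the second Ldha start, not shown, held 0 E-boxes and 2 hypoxia cores. Of the genes that changed, only Ldha held an E-box. Hk3 and Pfkfb4 each held 1 hypoxia core, G6pdx held 2 and 1 antioxidant response core, and Pdha1 held 4 hypoxia cores. Such short motifs are common. The hypoxia core was found in 6 of the 8 genes that rose, in 3 of the 4 that fell, in 78% of the 41 tested genes with a promoter entry, and in 68.5% of 7773 tested genes of the whole table. The E-box was found in 0 of 8, 1 of 4, 9.76% and 12.4%, and the antioxidant core in 1 of 8, 1 of 4, 22% and 17.4%. Over all 32851 promoters of 300 bases the shares were 43.8% for the hypoxia core, 7.15% for the E-box and 12.4% for the antioxidant core. A match describes the letters of the window and is not a binding site.

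Glucose-6-phosphate dehydrogenase, the entry enzyme of the oxidative pentose phosphate branch and its main control point, is encoded by G6pdx (chrX:74409483-74429194, minus strand). It was at 87.3, 102 and 94.0 FPKM in the vehicle libraries and 122, 123 and 146 in the FF-10501-01 libraries. The lowest treated library was above the highest vehicle library. FF-10501-01 replicate 3, the library with the highest late neutrophil marker sum, stood above the others, as it did for every listed gene that rose. G6pdx rose by 38.0% of its vehicle mean, from 94.3 ± 7.25 to 130.2 ± 13.4 FPKM (SD, n = 3 each), with a log2 fold change of 0.46 (95% interval 0.28 to 0.64, adjusted p = 0.0146, limma). Without that library the log2 fold change was 0.38 (adjusted p = 0.0476). The following enzyme genes did not pass. Pgls, 6-phosphogluconolactonase, was at 131, 116 and 113 FPKM and 108, 108 and 105 FPKM, lower in every treated library, with a log2 fold change of -0.16 (unadjusted p = 0.0216, adjusted p = 0.0904, limma). Pgd, 6-phosphogluconate dehydrogenase, which makes the second NADPH, was at 293, 294 and 304 FPKM and 310.3, 331 and 323 FPKM, higher in every treated library (log2 fold change 0.11, unadjusted p = 0.0182, adjusted p = 0.0820). Pgd passed after rescaling to TPM (adjusted p = 0.0411) and under quantile normalization (0.0432). The 3 genes therefore differed in direction, 2 positive and 1 negative, and their summed level was 511 ± 0.946 FPKM with vehicle and 558 ± 16.5 with FF-10501-01.

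The non-oxidative branch had the greatest share of genes that rose, 3 of 4. Rpe, ribulose 5-phosphate epimerase (chr1:66700831-66719805, plus strand), was at 26.8, 31.6 and 30.5 FPKM with vehicle and 37.2, 34.9 and 38.7 with FF-10501-01. Rpia, ribose 5-phosphate isomerase (chr6:70765720-70792232, minus strand), which makes ribose 5-phosphate itself, was at 39.2, 41.6 and 43.1 and 46.5, 47.0 and 54.8 FPKM. For both, each treated library was above each vehicle library, and FF-10501-01 replicate 3 was the highest. That library was also the highest for every other listed gene that rose. It was the lowest for Ldha, Pdha1 and Idh3g, but not for Suclg2. The log2 fold change was 0.31 for Rpe (SE 0.07, adjusted p = 0.0256, limma) and 0.25 for Rpia (SE 0.07, adjusted p = 0.0463). Taldo1, transaldolase (chr7:141392199-141402968, plus strand), which links the branch back to glycolysis, was at 426, 445 and 439 FPKM and 471, 484 and 487 FPKM. It rose by 0.14 on the log2 scale (SE 0.04, adjusted p = 0.0375, limma), a small difference without overlap between the groups. Tkt, transketolase, the other sugar-exchanging enzyme of the branch, was the most abundant of the 4 at 588, 627 and 580.2 FPKM and 588, 618 and 634 FPKM, with overlapping groups (log2 fold change 0.04, 95% interval -0.07 to 0.14). Its entry is shared with the microRNA gene Mir3076, which lies within it. Over both branches, 4 of 7 genes rose (57.1%, beside 7.43% of all tested entries), none fell, and the median log2 fold change was 0.14.

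**Figure D3:**
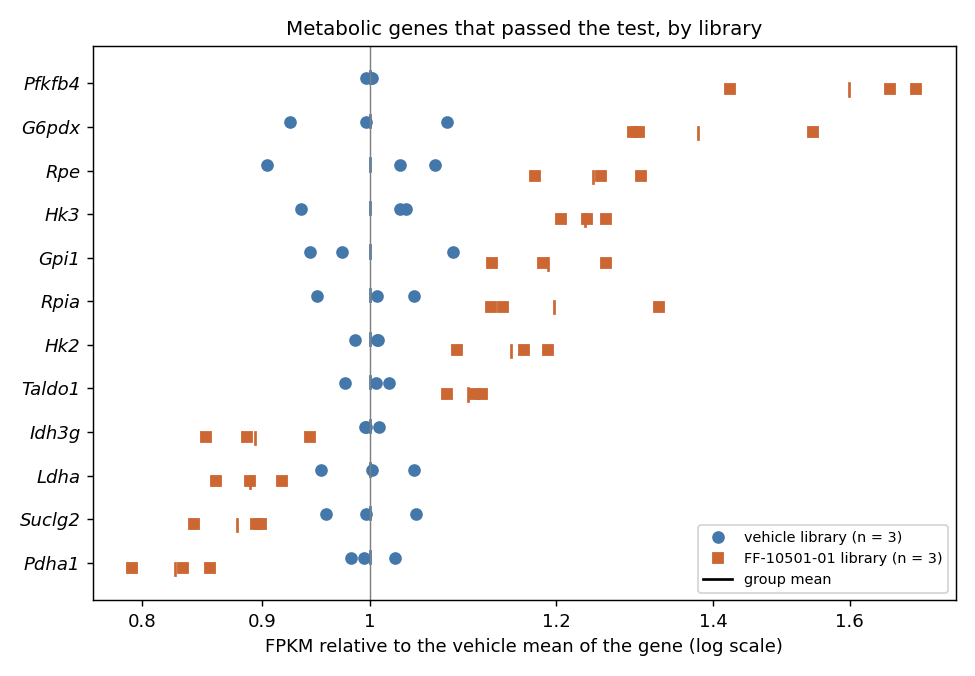
FPKM of the 12 genes that passed the test in each library, divided by the vehicle mean of the gene, on a log scale. Circles are vehicle libraries, squares FF-10501-01 libraries (n = 3 each), and short bars group means. In each of the 12 genes the circles and squares do not overlap, with the widest separation for Pfkfb4.

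Pyruvate dehydrogenase, the gate between glycolysis and the TCA cycle, was represented by the subunits of its first component. Pdha1, the alpha subunit that carries the regulatory phosphorylation sites (chrX:160122209-160138413, minus strand), was at 70.1, 68.0 and 67.1 FPKM in the vehicle libraries and 58.5, 56.9 and 54.2 in the FF-10501-01 libraries. The groups lay well apart. Pdha1 fell by 17.4% of its vehicle mean, from 68.4 ± 1.53 to 56.5 ± 2.17 FPKM (SD, n = 3 each), with a log2 fold change of -0.27 (95% interval -0.37 to -0.17, adjusted p = 0.0131, limma), the lowest of the 42 genes. Its partner Pdhb, the beta subunit, was at 67.7, 70.9 and 62.4 FPKM and 64.4, 66.8 and 66.7 FPKM with overlapping groups. The log2 fold change of Pdhb was -0.02 (95% interval -0.14 to 0.10, adjusted p = 0.814, limma) and turned to 0.02 without vehicle replicate 2. The difference between the subunits' changes was not tested.

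In the TCA cycle, 2 of 13 genes fell and none rose, 15.4% passing in either direction, which is near the 14.9% of all tested entries. In this pathway 10 of 13 had a negative difference, and the median log2 fold change was -0.06. Idh3g, the gamma subunit of the NAD+-dependent isocitrate dehydrogenase (chrX:73778963-73786897, minus strand), was at 113, 113 and 114 FPKM with vehicle and 100.5, 107 and 96.5 with FF-10501-01. The vehicle libraries agreed closely and all treated libraries were lower. Idh3g fell by 0.16 on the log2 scale (SE 0.05, adjusted p = 0.0481, limma). The other subunits of the same enzyme, Idh3a and Idh3b, had log2 fold changes of 0.03 and 0.01 (95% intervals -0.08 to 0.14 and -0.08 to 0.11), and their groups overlapped. Suclg2, the GTP-linked beta subunit of succinyl-CoA synthetase (chr6:95473009-95718800, minus strand), was at 53.8, 51.3 and 49.3 FPKM and 46.1, 43.3 and 46.3 FPKM. The groups did not overlap, and Suclg2 fell by 0.18 on the log2 scale (SE 0.05, adjusted p = 0.0436, limma). Sucla2, the ATP-linked beta subunit, was at 41.7, 39.5 and 40.8 FPKM and 38.6, 37.7 and 35.6 FPKM, also lower in every treated library, but did not pass (log2 fold change -0.12, unadjusted p = 0.0344, adjusted p = 0.119). The share of Suclg2 in the pair was 55.9 ± 0.973% with vehicle and 54.8 ± 1.55% with FF-10501-01 (SD, n = 3 each), a difference within the spread of the libraries. Their common alpha subunit Suclg1 had a log2 fold change of -0.03 (95% interval -0.13 to 0.06).

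Besides Sucla2, a further 2 TCA cycle genes had an unadjusted p under 0.05 without passing the adjusted test. Cs, citrate synthase, the first enzyme of the cycle, was at 114, 117 and 118 FPKM and 109.8, 109 and 103 FPKM (log2 fold change -0.12, unadjusted p = 0.0197, adjusted p = 0.0861, limma). Idh2, the mitochondrial NADP+-dependent isocitrate dehydrogenase, was at 96.7, 107 and 110.4 FPKM and 96.0, 90.7 and 92.1 FPKM (-0.17, unadjusted p = 0.0152, adjusted p = 0.0737). Both were lower in every treated library, Idh2 by a narrow margin. Mdh2, malate dehydrogenase, the most abundant TCA cycle gene, was at 248 ± 5.19 and 238 ± 5.40 FPKM (SD, n = 3 each), a log2 fold change of -0.06 (adjusted p = 0.302). Ogdh, Dlst and Dld, the 3 components of the 2-oxoglutarate dehydrogenase complex, had log2 fold changes of 0.08, -0.04 and -0.06, and Fh1, fumarase, of -0.07, all with overlapping groups. The cytosolic partner enzymes Idh1 and Mdh1 were at 76.4 ± 1.58 and 73.1 ± 5.91 FPKM and at 50.2 ± 1.12 and 48.7 ± 0.661 FPKM, and neither passed. With all 13 TCA cycle genes summed, the level was 1084 ± 19.2 FPKM with vehicle and 1027 ± 6.001 with FF-10501-01. All listed genes together held 1.58% to 1.66% of the summed FPKM of a library.

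The wider pathway was read from 93 other genes, of which 69 passed the filter. Of these, 4 rose (5.8%, beside 7.43% of all tested entries), 7 fell (10.1%, beside 7.46%), and the median log2 fold change was -0.06. In either direction 15.9% passed, a share near the 14.9% of all tested entries. In sugar handling, Adpgk, an ADP-dependent glucokinase, was at 32.4, 36.8 and 34.3 FPKM with vehicle and 41.8, 44.5 and 57.1 with FF-10501-01, with replicate 3 the highest (log2 fold change 0.45, adjusted p = 0.0294, limma). The entry Pgm1, of the phosphoglucomutase family, rose by 0.25 on the log2 scale (adjusted p = 0.0265, limma). The more abundant entry Pgm2 of that family was lower in every treated library, at 54.6 ± 1.78 and 50.9 ± 2.51 FPKM, without passing. In the pentose phosphate list, H6pd, the endoplasmic reticulum counterpart of G6pdx, rose by 0.18 (adjusted p = 0.0277, limma), from 37.4, 39.1 and 38.0 to 43.0, 43.1 and 43.8 FPKM. Prps1, which turns ribose 5-phosphate into phosphoribosyl pyrophosphate, the donor for purine synthesis, was at 43.0, 49.2 and 44.4 FPKM with vehicle and 39.2, 38.0 and 34.5 with FF-10501-01. Prps1 fell by 0.28 on the log2 scale (SE 0.07, adjusted p = 0.0288, limma), the opposite direction to Rpia, which makes its substrate. Its relative Prps2 was lower in every treated library (-0.12) but did not pass (adjusted p = 0.106).

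In lactate and pyruvate handling, Slc16a1, the monocarboxylate transporter MCT1, was at 13.7, 15.1 and 13.4 FPKM with vehicle and 11.4, 10.8 and 10.6 with FF-10501-01, and fell by 0.33 on the log2 scale (adjusted p = 0.0167, limma). Its chaperone Bsg, the most abundant gene of that list, was at 214 ± 8.51 and 211 ± 7.16 FPKM and did not pass. Pdk1, a kinase that inactivates pyruvate dehydrogenase by phosphorylating Pdha1, was at 13.4, 11.4 and 11.2 FPKM with vehicle and 10.04, 8.16 and 8.20 with FF-10501-01. It fell by 0.41 (adjusted p = 0.0278, limma), the same direction as the subunit it acts on, while Pdk3, the most abundant of the other genes of its list, was at -0.10 without passing. Fbp1, the gluconeogenic fructose bisphosphatase, fell by 0.37 (adjusted p = 0.0434), and G6pc3, the ubiquitous glucose-6-phosphatase, was at -0.05 without passing. Among shuttles and anaplerosis, Glul, glutamine synthetase, was at 59.1, 38.4 and 50.2 FPKM with vehicle and 26.8, 29.4 and 24.1 with FF-10501-01. Its log2 fold change of -0.84 was the lowest among the 69 genes (95% interval -1.16 to -0.52, adjusted p = 0.0136, limma), although the vehicle libraries themselves spread widely. Me1, the cytosolic malic enzyme and a source of NADPH, fell by 0.53 (adjusted p = 0.0264), and Got2, the mitochondrial aspartate aminotransferase, was at -0.14 without passing (adjusted p = 0.0741). No other TCA cycle gene passed. Sdha, the flavoprotein of succinate dehydrogenase, was at 178 ± 7.003 and 166 ± 2.22 FPKM, the highest of these, in an entry that it shares with the protein-coding gene Pdcd6. Of the regulators, Mlx, a partner of the glucose-sensing factor ChREBP, rose by 0.27 (adjusted p = 0.0189, limma). Mlxipl, the gene of ChREBP itself, was at or under 0.0753 FPKM in every library and was not tested. The related Mlxip was at -0.05 without passing. Egln3, a prolyl hydroxylase of the hypoxia pathway, fell by 0.45 (adjusted p = 0.0146), and Txnip, a glucose-responsive gene, was at 0.04 without passing.

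The calls were sensitive to single libraries. With any 1 of the 6 libraries left out, all 12 genes kept their direction, but 1 of them, Pfkfb4, kept an adjusted p under 0.05 in all 6 fits (0.0125 to 0.0463, limma). Hk3 and Pdha1 lost the call only without FF-10501-01 replicate 3 (adjusted p = 0.0524 and 0.0511), and G6pdx only without vehicle replicate 1 (0.0510). Rpe kept it without vehicle replicate 2 (0.0217) or FF-10501-01 replicate 2 (0.0445) and had 0.0571 to 0.0962 otherwise. Gpi1 kept it without vehicle replicate 2 (0.0139) or FF-10501-01 replicate 1 (0.0399) and had 0.0731 to 0.1143 otherwise. Taldo1 kept it only without vehicle replicate 2 (0.0423), with 0.0613 to 0.1221 otherwise, and Idh3g only without FF-10501-01 replicate 2 (0.0451), with 0.0722 to 0.1479 otherwise. Hk2 (0.0510 to 0.1246), Ldha (0.0518 to 0.1386), Rpia (0.0543 to 0.1421) and Suclg2 (0.0594 to 0.1312) lost it whichever library was left out. A fit on 5 libraries has fewer samples by construction, and the counts over all tested entries shrank too, from 818 higher and 821 lower to as few as 147 and 71 without FF-10501-01 replicate 3, while 884 and 789 were called without vehicle replicate 2. Of the other pathway genes, 1 fell without FF-10501-01 replicate 3 and 3 without vehicle replicate 1, as against 7, and 1 rose without FF-10501-01 replicate 2, as against 4. Annotated genes overlap Hk2 (Gm17034), Hk3 (Unc5a), Gpi1 (Gm26762), G6pdx (Ikbkg), Rpe (Kansl1l) and Pdha1 (Map3k15) on the opposite strand, and the share of their reads in these levels was not tested.

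**Figure D4:**
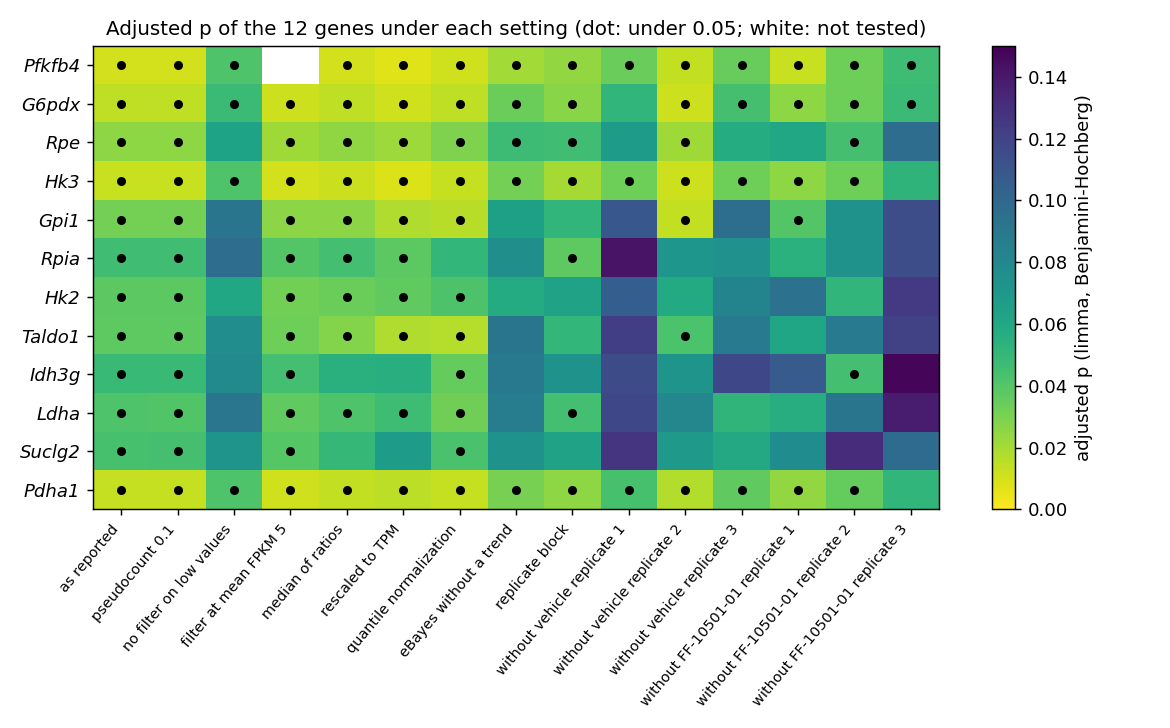
Adjusted p of the 12 genes (limma, Benjamini-Hochberg) under each processing setting and with each library left out. Columns are settings, rows are genes, color is the adjusted p and a dot marks values under 0.05; the white cell is Pfkfb4 under a filter of 5 FPKM. Pfkfb4 carries a dot in every tested setting.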

How the data were processed

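Per the submitters' processing notes, cutadapt 1.8.1, TopHat2 2.1.1 and Cufflinks 2.2.1 were used with GRCm38. The libraries came from a strand-specific kit (the labels give different amounts of input RNA); whether strand was used in quantification was not given in the sources used here, so reads of genes overlapping on opposite strands, as annotated for Hk2, Hk3, Gpi1, G6pdx, Rpe and Pdha1, may be mixed. The authors deposited FPKM values for 26384 entries in 6 libraries, without counts, replicate error or absolute depth. Between libraries, 70.5% to 72.3% of low values stood in small whole ratios (tolerance 0.01, natural log), which gave depths of 0.982 to 1.25 relative to vehicle replicate 1. Whole counts were not recovered, and no count model was run.

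Entries with a mean of at least 1 FPKM over all 6 libraries (11004) were tested on log2(FPKM + 1) with limma 3.58.1 in R 4.3.3 (linear model, eBayes with trend, two-sided, Benjamini-Hochberg over these entries), with both groups in 1 fit. The script was tested on simulated data. Members were matched by symbol, and the entry with the highest mean was kept. Genes that passed are named, and of the others the most abundant, the isozymes and those with an unadjusted p under 0.05. Members and gene lists were chosen with earlier results of these data known. Positions are from GENCODE vM21 on GRCm38 and promoters from RefSeq on GRCm38.p6.

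Correlations between libraries ran from 0.979 to 0.995, and no pair was a duplicate. Alternatives were a pseudocount of 0.1, no filter or one at 5 FPKM, median-of-ratios, TPM and quantile scaling, eBayes without trend, a replicate block and leaving out each library.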

Additional observations from a re-analysis of the deposited data

How the results depend on the processing

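All 12 genes that passed kept their direction in every alternative that gave them a value, and 4 of them (Hk3, Pfkfb4, G6pdx, Pdha1) kept their call in all alternatives other than leaving out a library. The count of genes that rose (8) was 3 with no filter on low values and 4 by eBayes without trend, and that of genes that fell (4) was 1 with no filter, 1 without trend, 2 with median-of-ratios scaling and 2 after rescaling to TPM. Higher calls thus made up 66.7% of the calls as reported, 80% with median-of-ratios scaling and 83.3% after rescaling to TPM. Over all tested entries, the 818 higher calls became 337 with no filter, and the 821 lower calls became 244 with no filter and 512 without trend; higher calls were 49.9% of all calls and 60.2% after rescaling to TPM. Of the other pathway genes, the 4 that rose became 2 with no filter and 2 without trend, and the 7 that fell became 3 with no filter.

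With each library left out in turn, 2 to 7 listed genes rose and 0 to 2 fell, 147 to 884 entries were higher and 71 to 789 lower, and 0 to 5 other pathway genes rose and 1 to 6 fell. The median log2 fold change of upper glycolysis then ran from 0.0830 to 0.141 and that of lower glycolysis from -0.0916 to -0.0557, the latter being -0.0409 under quantile normalization. Genes that did not pass changed sign in these cases: Slc2a1 ran from -0.0383 to 0.201, lowest without vehicle replicate 3; Gapdh from -0.0877 to 0.0147 and Pdhb from -0.0702 to 0.0202, both highest without vehicle replicate 2; and Idh1 from -0.102 to 0.00145, highest without FF-10501-01 replicate 3. Gapdh was at 0.0151 under quantile normalization. Apart from the smaller number of libraries and the larger number of entries tested without a filter, the cause was not tested.

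Libraries with the same number share only a number: the correlations of their deviations from the group means were -0.01, -0.07 and -0.04, within the range of all 9 pairs (-0.11 to 0.13), and not every library correlated best with the one of its own number. With the replicate number as a block, 5 listed genes rose and 2 fell. Depth per library is known only in relative terms, which limits what can be said of low genes such as Slc2a3 and Ldhb.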
